A study of Homo sapiens with 9 samples.

Results

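The genes described here make the machinery that builds ribosomes in the nucleolus. They are 33 genes picked by name for their function, among 24204 gene symbols measured by bulk RNA sequencing in HepG2, a human hepatocellular carcinoma line. By role they comprise 6 genes of RNA polymerase I and its cofactors, 7 genes of small nucleolar ribonucleoproteins (snoRNPs), 9 genes of small-subunit maturation, 6 genes of large-subunit maturation and 5 further nucleolar proteins. All 33 were in the table and all 33 were among the 11265 genes expressed highly enough to be tested, meaning at least 1 FPKM in at least 3 of the 9 libraries. FPKM is the number of sequenced fragments per length of the gene, scaled to the total of the library.

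The study asked what the pseudokinase TRIB3 does for the survival of tumor cells and their DNA. The 3 groups had 3 libraries each. Cells received lentivirus with a control hairpin (shCtrl), the first hairpin against TRIB3 (shTRIB3-1) or the second hairpin against TRIB3 (shTRIB3-2). All groups shared the line, the high-glucose medium with serum, 48 h of infection, a further 48 h of puromycin and harvest at the P2 generation. The labels name no clone, so the cells are treated here as selected populations. They also do not say whether libraries of a group came from separate cultures, and p-values then measure only the spread between libraries, which may be technical. Because these are bulk libraries scaled to their own totals, fewer cells of a type and less RNA per cell cannot be told apart.

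Ribosome production starts with RNA polymerase I, which copies the ribosomal DNA repeats into a long precursor RNA inside the nucleolus. Box C/D and box H/ACA snoRNPs methylate and pseudouridylate that precursor, and large sets of processing factors cut and fold it into the RNAs of the small and large subunits. The pathway is active in growing and tumor cells, and the transcription factor MYC is a known activator of many of its genes.

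The targeted gene, TRIB3, followed the labels. It stood at 67.9, 65.8 and 66.6 FPKM in the shCtrl libraries, 34.1, 32.7 and 34.0 FPKM with shTRIB3-1 and 20.6, 20.7 and 20.4 FPKM with shTRIB3-2. The groups did not overlap, and the log2 fold changes against shCtrl were -0.99 and -1.70, and the hairpins differed by -0.71 (limma adjusted p = 9.54e-09). Library totals ran from 34206726 to 36311029 fragments. Libraries of a group were compared in pairs by a chi-square of their fragment numbers per degree of freedom. In shCtrl, replicate 1 differed from replicates 2 and 3 by 7.36 and 7.54, and those from each other by 3.13. In shTRIB3-2, replicate 2 differed from replicates 1 and 3 by 6.03 and 6.42, and those from each other by 3.22, while the shTRIB3-1 pairs gave 4.16 to 5.26. Where leaving out 1 library ended the call of a member, the library is named beside that gene. The hepatocyte markers ALB, AFP, APOA1, TTR, SERPINA1 and TF were all expressed (6 of 6). Their summed level was 7319 to 7940 FPKM in shCtrl, 7798 to 8196 FPKM with shTRIB3-1 and 9860 to 10170 FPKM with shTRIB3-2. Of 8 markers of leukocytes, endothelium and fibroblasts, only CD68 reached 1 FPKM in any library. The sum of those 8 was 29.2 to 35.4 FPKM in shCtrl, 36.2 to 39.1 FPKM with shTRIB3-1 and 32.6 to 34.4 FPKM with shTRIB3-2, and PTPRC, CD3E and DCN had 0 or 1 fragment per library. ALB, at 4929 to 6715 FPKM over all libraries, was the largest part of the hepatocyte sum, and the single markers were not compared between groups. The part of the rise in that sum in the results below was not tested.

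Most of the 33 genes were lower with either hairpin, by modest amounts. Against shCtrl, 20 members were lower and 9 higher with shTRIB3-1 at an adjusted p under 0.05 (limma, adjusted over all tested genes). Over all tested genes 41.5% were lower and 32.9% higher in that comparison, 74.4% in all. With shTRIB3-2, 25 members were lower and 3 higher, beside 40.5% of all tested genes lower and 35.4% higher, 75.9% in all. The median log2 fold change of the members was -0.16 with shTRIB3-1 and -0.30 with shTRIB3-2, and that of all tested genes was -0.06 and -0.03. After each library was centred on its median gene, 14 members were lower with shTRIB3-1, and the calls of POLR1A, NOP56, DKC1, GAR1, HEATR1 and NOP2 ended. The median of all tested genes was then 0.02, and the share of them called was not counted for that scaling. The summed level of the 33 genes was 1481 to 1497 FPKM in shCtrl, 1231 to 1275 FPKM with shTRIB3-1 and 1095 to 1107 FPKM with shTRIB3-2. These are counts and medians of a chosen list, and no test of the list as a whole was made.

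By direction, 20 members were lower with both hairpins, and these held 5 of the 6 polymerase I genes, 6 of the 7 snoRNP genes and 4 of the 5 further nucleolar proteins. Of all tested genes 34.3% were lower with both. UTP4, RRP9 and PNO1 were higher with both, beside 28.1% of all tested genes. BOP1 and PES1 were higher with shTRIB3-1 and lower with shTRIB3-2, beside 0.826% of all tested genes. NHP2, RRP12, BYSL and NOP16 were higher with shTRIB3-1 and did not pass with shTRIB3-2, beside 3.96% of all tested genes. UTP15, RRP1 and MYBBP1A were lower with shTRIB3-2 and did not pass with shTRIB3-1, beside 5.34% of all tested genes. RRN3 passed with neither, beside 13.9% of all tested genes. Both comparisons use the same 3 shCtrl libraries, so they are not independent of each other.

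Few of these differences were large. A change of more than 1 on the log2 scale was reached by TCOF1 and FBL with shTRIB3-2, by 0 members with shTRIB3-1 and by 0 members between the hairpins. Among all tested genes 6.1% fell and 5.39% rose past that size with shTRIB3-1, and 6.27% fell and 6.06% rose with shTRIB3-2. Between the hairpins 1.79% of all tested genes were lower and 0.284% higher by that much with shTRIB3-2. All 3 libraries lay below all 3 shCtrl libraries for 21 members with shTRIB3-1 and for 25 with shTRIB3-2, beside 43% and 41.3% of all tested genes. They lay above for 8 and 2 members, beside 34.2% and 36.1% of all tested genes.

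**Figure D1:**
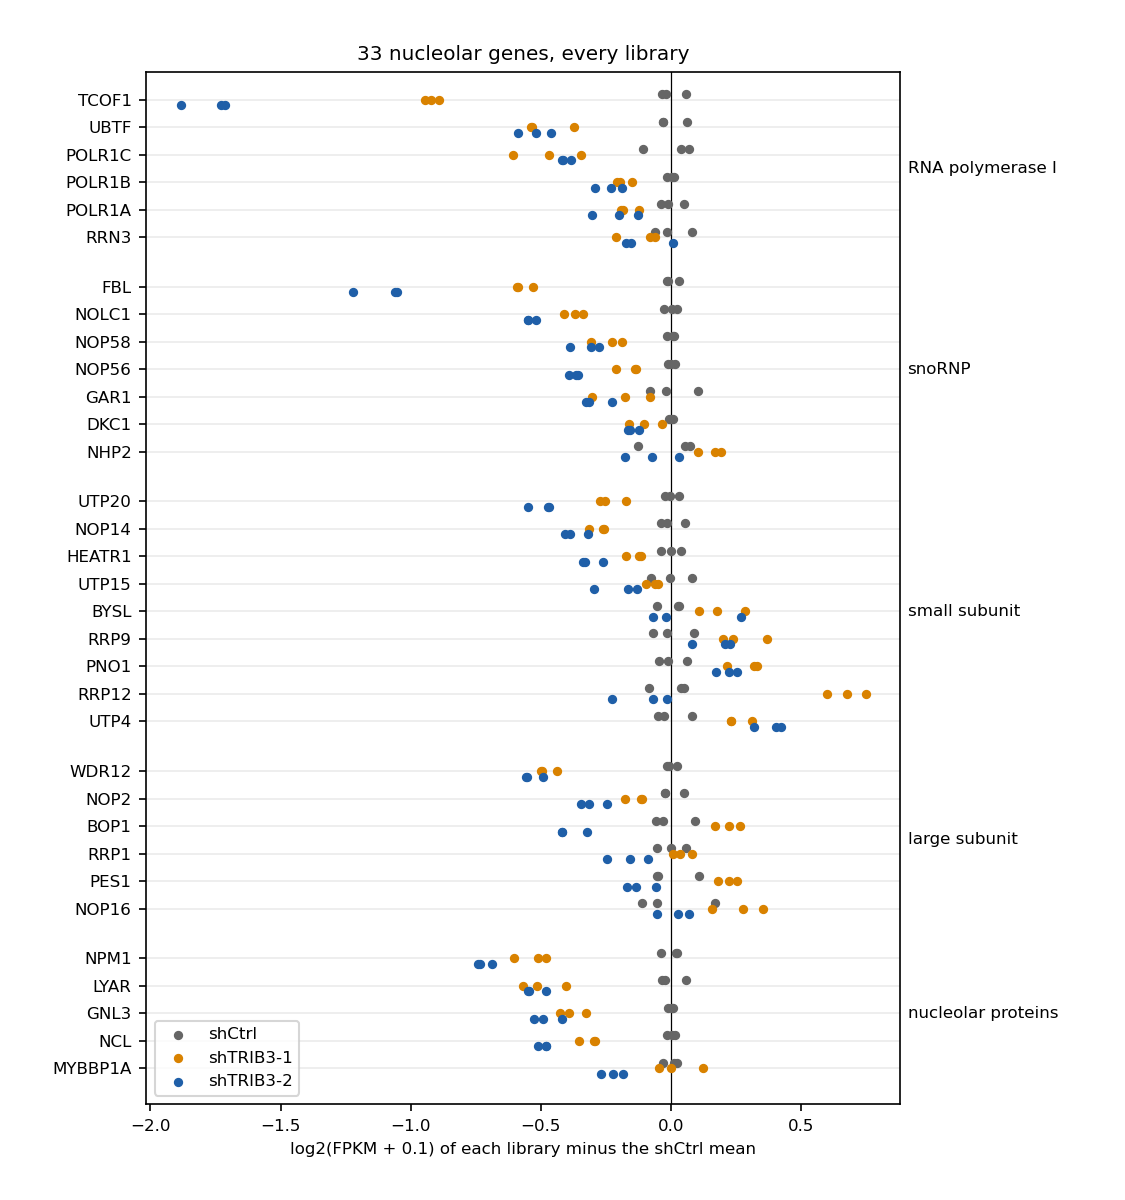
Each point is 1 library, placed by its log2(FPKM + 0.1) minus the mean of the 3 shCtrl libraries, for the 33 genes grouped by role. TCOF1 lies farthest to the left in both knockdown groups, followed by FBL with shTRIB3-2, and the small-subunit group holds genes on both sides of 0.

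**Figure D2:**
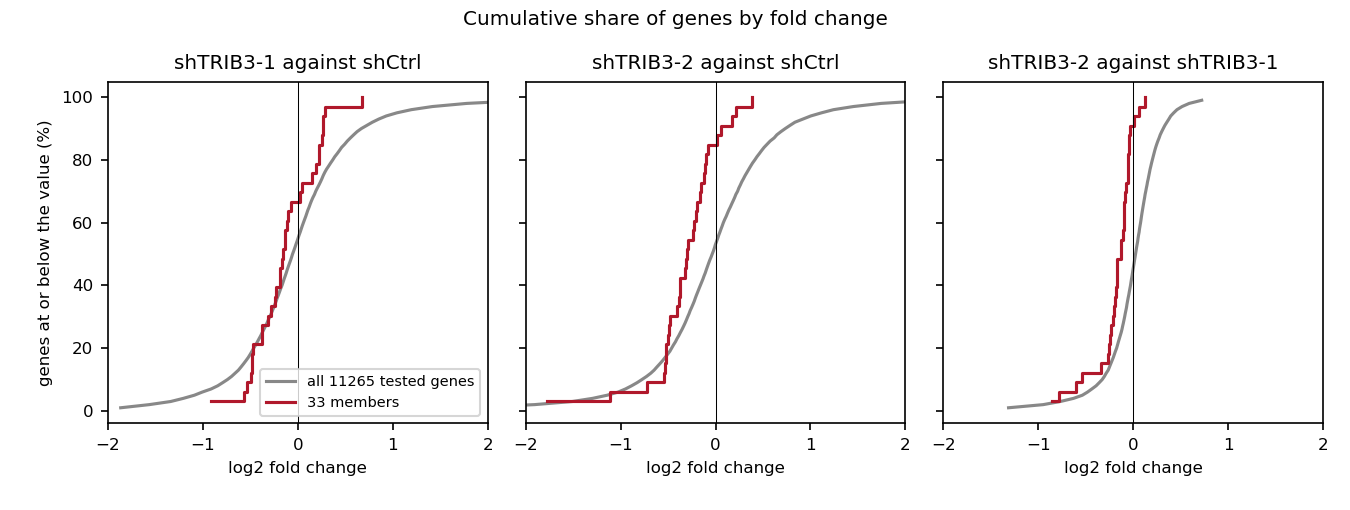
Cumulative share of genes (%) by log2 fold change in the 3 comparisons, for the 33 members and for all 11265 tested genes, with the horizontal axis limited to values from -2 to 2. The members lie to the left of all genes at the median in each panel (-0.16, -0.30 and -0.13 against -0.06, -0.03 and 0.03).

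The hairpins were also compared with each other. With shTRIB3-2, 17 members were lower and 1 was higher than with shTRIB3-1, beside 20.7% of all tested genes lower and 25.1% higher, 45.8% in all. The members' median was -0.13 and that of all tested genes 0.03. The 3 shTRIB3-2 libraries lay below all shTRIB3-1 libraries for 18 members, beside 24.4% of all tested genes, and above them for 1, beside 30.1%. The higher member was UTP4, with a difference of 0.12 (adjusted p = 0.0353). That call ended without shTRIB3-1 replicate 1 or 3 or shTRIB3-2 replicate 2 or 3 (adjusted p of 0.0962 to 0.122).

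The promoters were read for 2 letter patterns, because the members move together in part and the study concerns G-quadruplexes, 4-stranded DNA folds of guanine-rich sequence. The first pattern is CACGTG, an E-box that MYC and its partner MAX can bind, which reads the same on both strands. The second is 4 runs of at least 3 G with 1 to 7 bases between them, on either strand, the usual letter pattern of a possible G-quadruplex. The windows run from 250 bases before to 50 bases after RefSeq transcription starts (GRCh38.p14), and 28 of the 33 members had an entry. CACGTG was found for 13 of the 28 genes (46.4%) and for 12.7% of the 9088 tested genes with an entry. The quadruplex pattern was found for 8 of the 28 (28.6%) and for 40.7% of those 9088 genes. These are letter matches in a window and were not tested as binding or folding sites.

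Stretches of 4 promoters of named members that hold a pattern are printed from 80 bases before to 30 bases after the start, 5′ to 3′ on the gene's strand, with the patterns in capitals. FBL (chr19:39846350-39846459, minus strand) carries both. Within the printed stretch, LYAR (chr4:4289992-4290101, minus strand) and GNL3 (chr3:52685952-52686061, plus strand) carry CACGTG, and UBTF (chr17:44220853-44220962, minus strand) carries the quadruplex pattern. GNL3 also holds the quadruplex pattern outside the printed stretch, on the other strand, for example from base -165 to -140 of the same window.
FBL: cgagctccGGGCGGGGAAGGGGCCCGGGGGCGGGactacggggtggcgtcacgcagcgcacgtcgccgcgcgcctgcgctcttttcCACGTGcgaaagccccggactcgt
LYAR: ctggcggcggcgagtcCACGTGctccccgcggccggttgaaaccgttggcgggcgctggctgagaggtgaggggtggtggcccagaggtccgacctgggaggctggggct
GNL3: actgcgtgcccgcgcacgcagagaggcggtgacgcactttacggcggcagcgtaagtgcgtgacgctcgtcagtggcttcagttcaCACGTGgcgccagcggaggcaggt
UBTF: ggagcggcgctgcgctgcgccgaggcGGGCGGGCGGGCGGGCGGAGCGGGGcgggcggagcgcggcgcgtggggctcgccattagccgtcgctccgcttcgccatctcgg

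Members with the E-box were found among those that rose and those that fell. The mean of the 2 log2 fold changes was below 0 for 8 of the 13 members with CACGTG and for 13 of the 15 without it, with medians of -0.22 and -0.21. Of all 11265 tested genes, 6175 had a change below 0 with shTRIB3-1 and 5982 with shTRIB3-2. For the mean of the 2 changes that number was not counted. UTP4, RRP9 and PNO1, which were higher with both hairpins, hold the E-box, as do FBL, LYAR and GNL3, which were lower with both. The 8 members with the quadruplex pattern also had mean changes on both sides of 0. These were -0.84 for FBL, -0.50 for UBTF, -0.43 for GNL3 and -0.12 for DKC1. For NHP2, PES1, PNO1 and UTP4 they were 0.04, 0.05, 0.25 and 0.32.

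MYC transcript levels did not move the same way with both hairpins. MYC stood at 26.1, 24.6 and 23.8 FPKM in shCtrl, at 28.9, 27.5 and 27.0 FPKM with shTRIB3-1 and at 17.5, 16.4 and 17.0 FPKM with shTRIB3-2. The change was 0.16 (SE 0.043, adjusted p = 0.00507) with the first hairpin and -0.55 (SE 0.043, adjusted p = 1.7e-07) with the second. The first of these did not pass on the TPM scale (adjusted p = 0.0595). MKI67, the proliferation marker, fell from 28.9, 26.9 and 26.0 FPKM to 6.77, 6.32 and 7.24 FPKM with shTRIB3-1 and to 3.44, 3.08 and 3.11 FPKM with shTRIB3-2. The part of either gene in the changes of the members was not tested.

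In shCtrl the 33 genes spanned an 82.0-fold range of levels per length. NPM1 was the highest, followed by NCL and NOP56, and UTP15 was the lowest with 5.04, 4.51 and 4.74 FPKM. In the order of mean levels, 18 of the 32 neighbouring pairs overlapped between libraries. The coefficient of variation among the 3 libraries of a group ran from 0.51% to 13.1% with a median of 3.51%, and 2 of 99 values were over 10%. Between 561 and 31367 fragments stood behind each member in each library.

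Nearly all polymerase I genes fell, and TCOF1 changed the most of all 33 members. Of these 6 genes, 5 fell and 0 rose with each hairpin, with group medians of -0.33 and -0.32. Over all tested genes 41.5% fell and 32.9% rose with shTRIB3-1, and 40.5% fell and 35.4% rose with shTRIB3-2. TCOF1 encodes treacle, a nucleolar scaffold for ribosomal DNA transcription that is mutated in Treacher Collins syndrome. It stood at 11.0, 10.3 and 10.4 FPKM in shCtrl, at 5.67, 5.55 and 5.45 FPKM with shTRIB3-1 and at 3.13, 2.80 and 3.16 FPKM with shTRIB3-2. The 3 groups were fully separate. Its log2 fold change was -0.92 (SE 0.058, adjusted p = 2.89e-08) with shTRIB3-1 and -1.78 (SE 0.058, adjusted p = 6.87e-11) with shTRIB3-2. The level with the second hairpin differed from that with the first by -0.86 (SE 0.058, adjusted p = 3.96e-07).

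UBTF, the factor that binds and opens ribosomal DNA for polymerase I, fell to like levels with both hairpins. It measured 15.4, 14.4 and 14.4 FPKM in shCtrl, 11.3, 10.1 and 10.1 FPKM with shTRIB3-1 and 10.2, 9.76 and 10.7 FPKM with shTRIB3-2. The changes were -0.48 (SE 0.055, adjusted p = 5.79e-06) and -0.52 (SE 0.055, adjusted p = 2.5e-06), and the knockdown groups overlapped each other. POLR1C, a subunit shared by polymerases I and III, went from 10.5, 9.49 and 10.8 FPKM to 6.69, 7.37 and 8.04 FPKM and to 7.63, 7.64 and 7.81 FPKM. Its changes were -0.47 (adjusted p = 4.11e-05) and -0.41 (adjusted p = 0.000138). Of its annotated exon bases 18.3% are overlapped by genes on the opposite strand.

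POLR1A, the largest polymerase I subunit, changed less. It stood at 11.1, 10.6 and 10.4 FPKM in shCtrl, at 9.84, 9.41 and 9.36 FPKM with shTRIB3-1 and at 9.33, 8.66 and 9.82 FPKM with shTRIB3-2. All 6 knockdown libraries lay below the 3 controls. The changes were -0.17 (SE 0.052, adjusted p = 0.0109) and -0.21 (SE 0.052, adjusted p = 0.00271), and the first did not pass after median centring (adjusted p = 0.0904). POLR1B, another core subunit, changed by -0.18 and -0.24. RRN3, which carries polymerase I to the promoter, had changes of -0.12 and -0.11 (adjusted p = 0.0749 and 0.105), and 3 named pseudogenes could share its reads.

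Among the snoRNP genes FBL moved most. In this group 6 of 7 fell and 1 rose with shTRIB3-1, and 6 fell and 0 rose with shTRIB3-2, with medians of -0.19 and -0.32. The shares of all tested genes that fell and rose were 41.5% and 32.9%, then 40.5% and 35.4%. FBL, fibrillarin, is the enzyme that methylates ribose in the precursor RNA. Its level was 78.1, 80.7 and 78.4 FPKM in shCtrl, 54.7, 52.6 and 52.4 FPKM with shTRIB3-1 and 37.8, 33.8 and 38.0 FPKM with shTRIB3-2. No library of one group reached those of another. FBL changed by -0.57 (SE 0.043, adjusted p = 1.47e-07) and by -1.11 (SE 0.043, adjusted p = 2.93e-10), and the hairpins differed by -0.54 (SE 0.043, adjusted p = 1.44e-06).

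NOLC1, a chaperone of both snoRNP classes, stood at 59.5, 58.3 and 60.2 FPKM in shCtrl. It fell to 47.0, 44.6 and 45.9 FPKM with shTRIB3-1 and to 41.4, 40.5 and 40.5 FPKM with shTRIB3-2. The 3 groups were separate, with changes of -0.37 (SE 0.030, adjusted p = 2.77e-07) and -0.54 (SE 0.030, adjusted p = 7.97e-09). The box C/D core proteins NOP56 and NOP58 changed by -0.16 and -0.24 with shTRIB3-1 and by -0.37 and -0.32 with shTRIB3-2. NOP56 hosts snoRNA genes. Together with a microRNA they cover 9.54% of its 4950 annotated exon bases, all transcripts combined. The length behind its FPKM is 1913 bases, so that share need not hold for the measured exons.

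The box H/ACA genes had small changes. DKC1, the pseudouridine synthase, fell slightly, with -0.10 for the first hairpin (adjusted p = 0.0224) and -0.15 for the second (adjusted p = 0.00206). Its partner GAR1 fell as well, with -0.19 (adjusted p = 0.0142) for the first hairpin and -0.29 (adjusted p = 0.000857) for the second. With shTRIB3-1 the DKC1 call ended without shCtrl replicate 3 or shTRIB3-1 replicate 1 or 2 (adjusted p of 0.0512 to 0.0995), and the GAR1 call without shCtrl replicate 3 (0.0678) or shTRIB3-1 replicate 2 (0.0672). NHP2, a further core protein, rose by 0.15 with shTRIB3-1 (adjusted p = 0.0323), a call that ended without shCtrl replicate 1 (0.139), shTRIB3-1 replicate 1 (0.0956) or shTRIB3-1 replicate 2 (0.0739). The call also ended with all genes above 0 (0.0945) and on the TPM scale (0.114). With shTRIB3-2 the change of NHP2 was -0.07 (adjusted p = 0.272). Opposite-strand genes overlap 28.0% of the NHP2 exon bases.

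The small-subunit genes moved in both directions. Of these 9 genes, 3 fell and 5 rose with shTRIB3-1, and 4 fell and 3 rose with shTRIB3-2, with medians of 0.19 and -0.10. With shTRIB3-1 these were 33.3% and 55.6%, beside 41.5% and 32.9% of all tested genes. With shTRIB3-2 they were 44.4% and 33.3%, near the 40.5% and 35.4% of all tested genes. UTP20, NOP14 and HEATR1, parts of the small-subunit processome that forms on the early precursor, fell with both hairpins. Their changes were -0.23, -0.28 and -0.14 with shTRIB3-1 and -0.50, -0.37 and -0.31 with shTRIB3-2. UTP15, of the same complex, had -0.07 with shTRIB3-1 (adjusted p = 0.342) and fell by 0.20 with shTRIB3-2 (adjusted p = 0.0141). That UTP15 call ended without shCtrl replicate 1 (0.0625) or shTRIB3-2 replicate 2 (0.0506). Genes on the opposite strand overlap 20.7% of the NOP14 and 23.1% of the HEATR1 exon bases.

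UTP4, a processome protein, was the member with the largest rise over both hairpins. It rose from 28.7, 26.7 and 26.2 FPKM to 31.9, 33.7 and 31.9 FPKM and to 33.9, 35.9 and 36.4 FPKM. Both knockdown groups lay above shCtrl, with changes of 0.26 (adjusted p = 0.000181) and 0.38 (adjusted p = 5.58e-06). PNO1, an assembly factor of the late small subunit, rose by 0.29 and 0.22. RRP9, a protein of the U3 snoRNP, rose by 0.27 and 0.17, and its call with shTRIB3-2 (adjusted p = 0.0179) ended without shCtrl replicate 1 or shTRIB3-2 replicate 1 or 2 (0.0613 to 0.0686). That call also ended with all genes above 0 (0.0516). UTP4 was named here after its values were seen.

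RRP12, a factor for maturation and export of the subunits, rose with 1 hairpin. It stood at 17.9, 17.8 and 16.3 FPKM in shCtrl, at 29.2, 27.7 and 26.3 FPKM with shTRIB3-1 and at 16.5, 14.8 and 17.1 FPKM with shTRIB3-2. The shTRIB3-1 libraries lay above all others, and those of shTRIB3-2 overlapped shCtrl. The change was 0.67 (SE 0.060, adjusted p = 5.83e-07) with shTRIB3-1 and -0.10 (SE 0.060, adjusted p = 0.129) with shTRIB3-2. The direct difference between the hairpins was -0.78 (SE 0.060, adjusted p = 1.05e-06). BYSL, which acts late in small-subunit assembly, rose by 0.19 with shTRIB3-1 (adjusted p = 0.041) and had 0.06 with shTRIB3-2 (adjusted p = 0.499). The BYSL call ended without shCtrl replicate 1, 2 or 3 or shTRIB3-1 replicate 1 or 2 (0.0575 to 0.148). It also ended with all genes above 0 (0.112) and on the TPM scale (0.139).

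**Figure D3:**
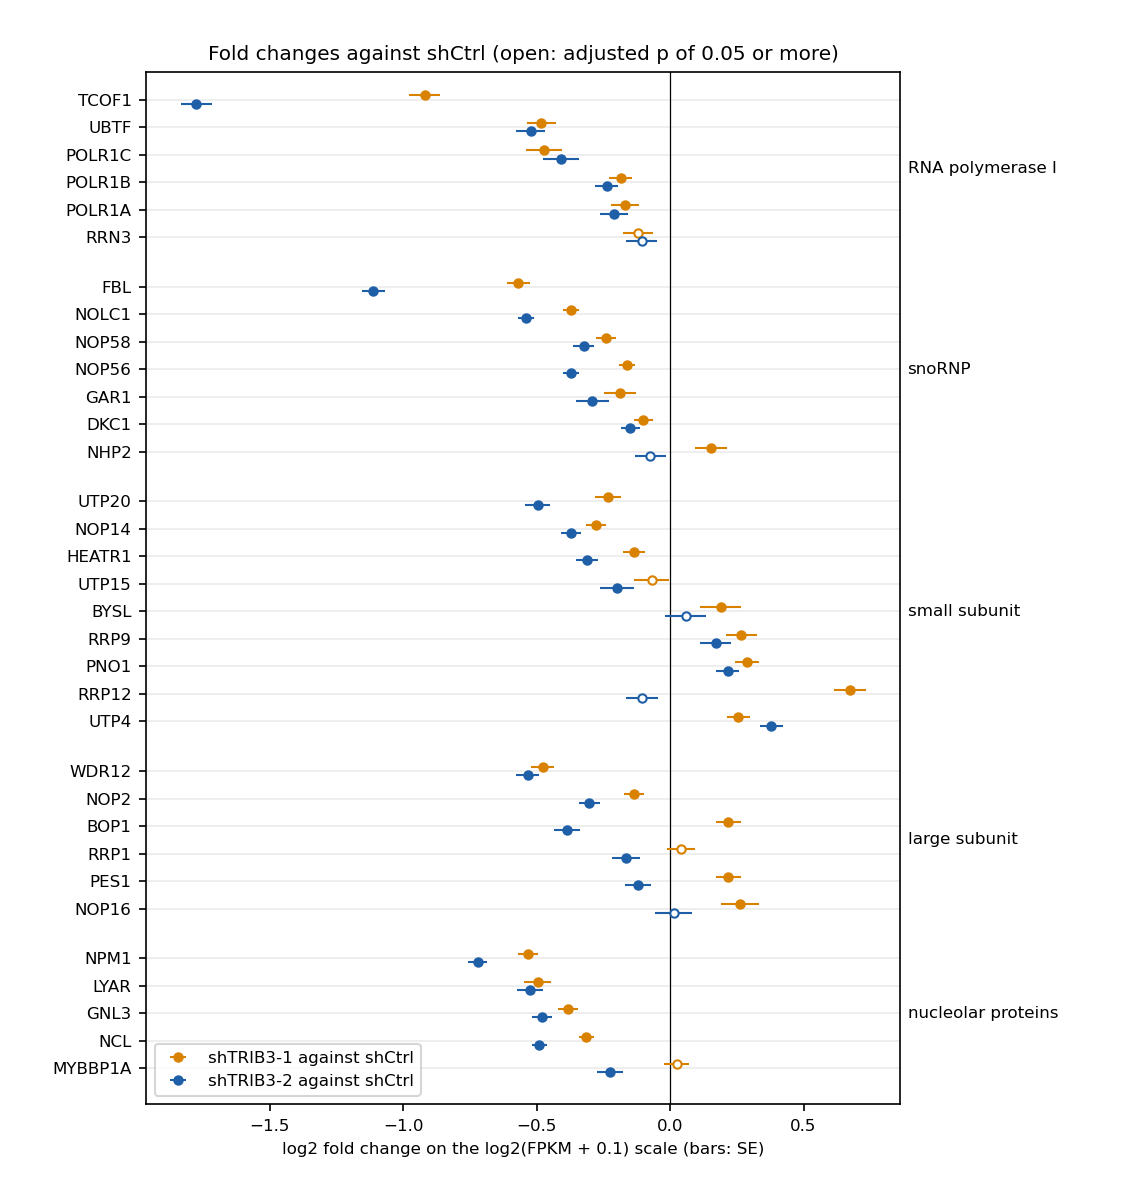
Log2 fold change against shCtrl with its SE for each of the 33 genes and both hairpins, with open symbols for an adjusted p of 0.05 or more. RRP12 (0.67 and -0.10), BOP1 (0.22 and -0.39) and PES1 (0.22 and -0.12) have the hairpins on opposite sides of 0. So do NHP2 (0.15 and -0.07), RRP1 (0.04 and -0.16) and MYBBP1A (0.02 and -0.23).

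The large-subunit genes moved in both directions with shTRIB3-1 and downward with shTRIB3-2. Of these 6 genes, 2 fell and 3 rose with shTRIB3-1, and 5 fell and 0 rose with shTRIB3-2, with medians of 0.13 and -0.23. Among all tested genes 41.5% fell and 32.9% rose with shTRIB3-1, and 40.5% fell and 35.4% rose with shTRIB3-2. BOP1, PES1 and WDR12 form the PeBoW complex, which is needed to process the large-subunit RNAs, and its members did not move together. WDR12 stood at 10.4, 10.4 and 10.7 FPKM in shCtrl, at 7.42, 7.41 and 7.73 FPKM with shTRIB3-1 and at 7.13, 7.12 and 7.45 FPKM with shTRIB3-2. It fell with both hairpins, with changes of -0.48 (SE 0.043, adjusted p = 6.95e-07) and -0.53 (SE 0.043, adjusted p = 2.22e-07).

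BOP1 went the other way with shTRIB3-1. Its level was 17.3, 17.6 and 19.2 FPKM in shCtrl, 21.1, 20.3 and 21.7 FPKM with shTRIB3-1 and 14.4, 13.5 and 13.5 FPKM with shTRIB3-2. The groups were separate, with the control between the knockdowns. The changes were 0.22 (SE 0.048, adjusted p = 0.00129) and -0.39 (SE 0.048, adjusted p = 1.15e-05), and the direct difference was -0.61 (SE 0.048, adjusted p = 1.39e-06). PES1 rose by 0.22 with shTRIB3-1 (adjusted p = 0.00127) and fell by 0.12 with shTRIB3-2 (adjusted p = 0.0369). The PES1 call with shTRIB3-2 ended without shCtrl replicate 1 (0.162) or shTRIB3-2 replicate 1 (0.129) or 2 (0.0908).

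NOP2, an RNA methyltransferase of the large subunit, changed by -0.14 and -0.30. Another annotated gene on the same strand covers 54.4% of its annotated exon bases, all transcripts combined. NOP16 rose by 0.26 with shTRIB3-1 (adjusted p = 0.00469) and had 0.01 with shTRIB3-2 (adjusted p = 0.868), with 18.6% of its exon bases overlapped on the opposite strand. RRP1 had 0.04 with shTRIB3-1 (adjusted p = 0.498) and fell by 0.16 with shTRIB3-2 (adjusted p = 0.0133). That RRP1 call ended without shCtrl replicate 3 (0.058) or shTRIB3-2 replicate 1 (0.0634), and also after median centring (0.0942) and quantile normalization (0.1). The lower NOP16 level of shTRIB3-2 against shTRIB3-1, -0.25 (adjusted p = 0.0122), did not pass without shTRIB3-1 replicate 2 (0.0513) or shTRIB3-2 replicate 1 (0.0503). Nor did it pass with all genes above 0 (0.0532).

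The further nucleolar proteins were mostly lower, NPM1 by the most. In this group 4 of 5 fell and 0 rose with shTRIB3-1, and 5 fell with shTRIB3-2, with medians of -0.38 and -0.49. The shares of all tested genes that fell were 41.5% and 40.5%. NPM1, nucleophosmin, is the abundant histone and ribosome chaperone of the nucleolus. It stood at 380.0, 395.5 and 397 FPKM in shCtrl, at 257, 280 and 274 FPKM with shTRIB3-1 and at 235, 243 and 234 FPKM with shTRIB3-2. The 3 groups did not overlap, with changes of -0.53 (SE 0.036, adjusted p = 5.59e-08) and -0.72 (SE 0.036, adjusted p = 2.94e-09). The annotation names 49 NPM1 pseudogenes, and how their reads were assigned is not given in the sources used here.

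NCL, nucleolin, which coats nascent ribosomal RNA and also binds G-quadruplexes, was the next most abundant. Its level was 223, 219 and 222 FPKM in shCtrl, 173, 181 and 180 FPKM with shTRIB3-1 and 159, 158 and 155 FPKM with shTRIB3-2. It was lower in each step, with changes of -0.31 (SE 0.028, adjusted p = 6.76e-07) and -0.49 (SE 0.028, adjusted p = 9.84e-09) against shCtrl and of -0.18 (adjusted p = 0.00034) between the hairpins.

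GNL3, nucleostemin, a GTPase of stem and tumor cells, stood at 52.0, 52.2 and 51.5 FPKM in shCtrl. It went to 39.5, 38.6 and 41.3 FPKM with shTRIB3-1 and to 36.8, 36.0 and 38.8 FPKM with shTRIB3-2. All 6 knockdown libraries lay below the controls, with changes of -0.38 (adjusted p = 1.17e-06) and -0.48 (adjusted p = 1.31e-07). The difference between hairpins, -0.10 (adjusted p = 0.0476), lost its call when any 1 of 7 libraries was left out (adjusted p of 0.051 to 0.183), that is, every library other than shTRIB3-1 replicate 2 and shTRIB3-2 replicate 3. It also lost the call with all genes above 0 (0.0853), on the TPM scale (0.245), with 2 groups only (0.0689) and with voom (0.0619). LYAR, a growth-regulating nucleolar protein, went from 15.0, 14.2 and 14.1 FPKM to 9.67, 10.0 and 10.9 FPKM and to 9.79, 9.83 and 10.3 FPKM. The knockdown groups overlapped each other and lay below shCtrl, with changes of -0.50 (adjusted p = 1.9e-06) and -0.53 (adjusted p = 1.02e-06). MYBBP1A, which holds back ribosomal RNA synthesis and processing, had 0.02 with shTRIB3-1 (adjusted p = 0.654) and fell by 0.23 with shTRIB3-2 (adjusted p = 0.000952).

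**Figure D4:**
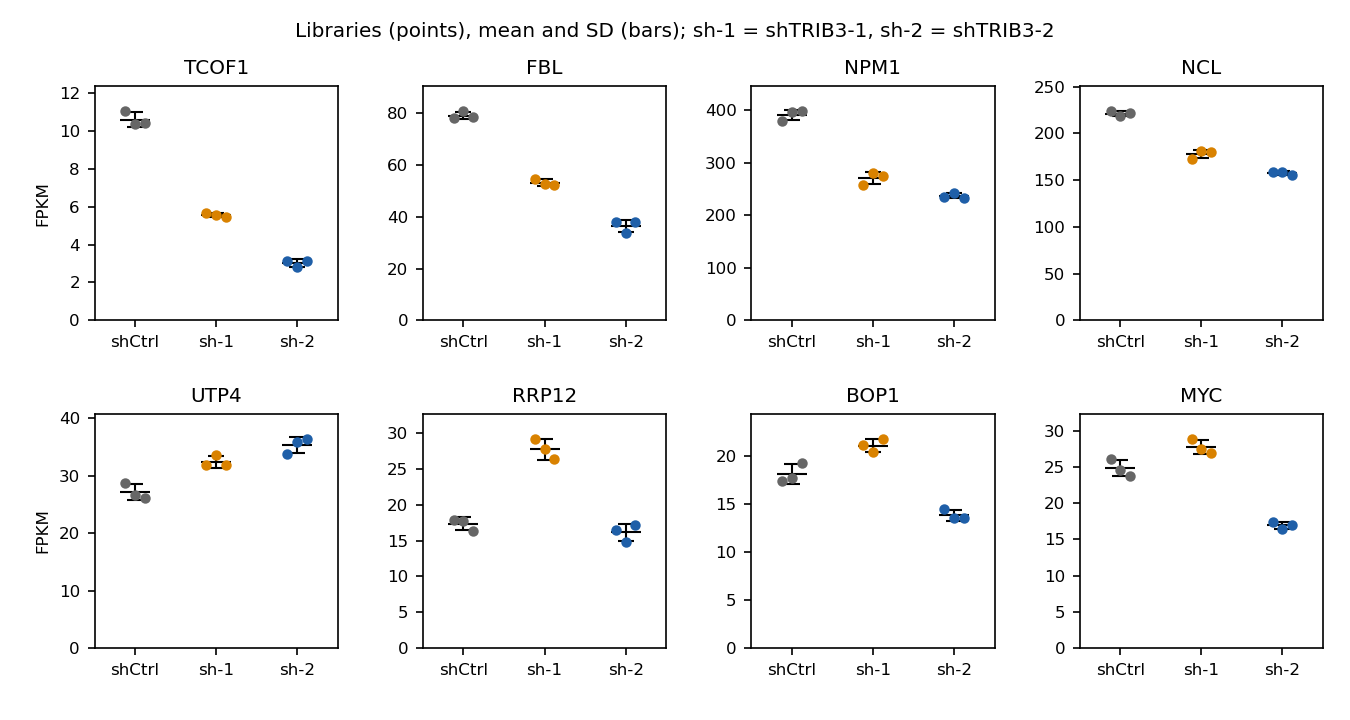
FPKM of each library (points), with the group mean and SD (bars), for 7 members and MYC, each axis starting at 0. TCOF1, FBL, NPM1 and NCL step down from shCtrl to shTRIB3-1 to shTRIB3-2, UTP4 steps up, and RRP12, BOP1 and MYC are highest with shTRIB3-1.

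The rest of the pathway was read from a list of 118 other ribosome biogenesis genes, all of them tested. With shTRIB3-1, 50 fell (42.4%) and 23 rose (19.5%), beside 41.5% and 32.9% of all tested genes, so the share that fell was near the background. That split became 34 and 34 after median centring and 39 and 29 after quantile normalization, for which the shares of all tested genes were not counted. With shTRIB3-2, 71 fell (60.2%) and 17 rose (14.4%), beside 40.5% and 35.4% of all tested genes. Their medians were -0.07 and -0.22. By role, 7 of 10 further polymerase I genes fell with shTRIB3-1 and 8 with shTRIB3-2, and 1 rose with each. Of 11 further snoRNP genes 6 and 7 fell and 2 rose with each hairpin. Of 42 further small-subunit genes 17 (40.5%) and 26 (61.9%) fell and 9 and 5 rose. Of 41 further large-subunit genes 11 (26.8%) and 21 (51.2%) fell and 11 and 9 rose. With shTRIB3-1 the shares of small- and large-subunit genes that fell were thus no higher than the 41.5% of all tested genes.

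Genes at both ends of that list changed with both hairpins. EXOSC8, a subunit of the RNA exosome, had the lowest changes of the list, -0.87 and -1.12. RRS1, a large-subunit assembly factor, had -0.68 and -0.79, and MPHOSPH10, a processome protein, -0.72 and -0.76. RCL1, a processome factor, rose from 11.6, 11.1 and 11.3 FPKM to 32.4, 33.5 and 32.1 FPKM and to 61.7, 65.3 and 62.5 FPKM. Its changes of 1.52 (adjusted p = 6.16e-12) and 2.47 (adjusted p = 1.2e-13) were the highest of the list. TAF1B, of the polymerase I selectivity factor, rose by 0.48 and 0.44, and NOP10, a box H/ACA core protein, by 0.50 and 0.38.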

How the data were processed

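The deposited table holds FPKM values per gene symbol, which the authors made from reads aligned to GRCh38 with STAR. The submitters' processing notes name HTSeq and R 3.2.0. The annotation release and the strand setting of the counting are not given in the sources used here. The study's methods and the labels describe different library kits and media, of which the labels were followed. Those methods call the RNA libraries strand-specific. Whether opposite-strand reads were counted for a member was not tested. FPKM is relative to each library's total, so a change in RNA per cell is not seen. Depths, fragment numbers and the lengths behind the FPKM were inferred from these values. For each gene the smallest length that made its values whole fragment numbers was searched for. Of 172769 values above 0, 100% were then whole within 0.02, a share that the search itself favours.

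Values were tested as log2(FPKM + 0.1) with limma 3.58.1 (R 4.3.3, trended variance, all 9 libraries in 3 groups), two-sided with Benjamini-Hochberg adjustment over genes with at least 1 FPKM in at least 3 libraries. Fold changes on that scale understate low genes. The deposited values are not counts, so the study's count model was not used. Members and lists were chosen with earlier results of these data known. Values per library are given for the 10 members with the largest mean change, the 4 with the largest difference between hairpins, and NCL, NPM1, FBL, POLR1A and UBTF. Of the other pathway genes, the 3 lowest and 3 highest are named. Positions and overlaps come from GENCODE v44, and promoters from RefSeq. Besides RRN3 and NPM1, named pseudogenes that could share reads are annotated for NOP56 (3), NCL (2), NHP2 (2), PES1 (2), NOLC1 (1) and LYAR (1). Exon overlaps are shares of the exon bases of all annotated transcripts of a gene combined. That length can differ from the length behind the FPKM (for NOP2, 4687 against 2939 bases). The percentages are therefore not shares of the measured gene. Alternatives were another pseudocount, filters, scalings, a replicate block, 2-group fits, voom on fragments and leaving out each library.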

Additional observations from a re-analysis of the deposited data

Results flagged for a closer look

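BOP1, PES1 and MYC passed in opposite directions with the 2 hairpins against the same shCtrl libraries, and the direct test between the hairpins passed for each (limma). With opposite signs and a shared SE, the direct difference is larger than either change, so its test is not separate support. With shTRIB3-2 against shTRIB3-1 the difference was -0.61 for BOP1 (adjusted p = 1.39e-06), -0.34 for PES1 (adjusted p = 0.000133) and -0.71 for MYC (adjusted p = 1.6e-07). PES1 stood at 27.8, 24.9 and 24.8 FPKM in shCtrl, at 29.3, 30.7 and 30.1 FPKM with shTRIB3-1 and at 22.9, 23.5 and 24.8 FPKM with shTRIB3-2, so its highest library with shTRIB3-2 lay just under the lowest of shCtrl. Among all tested genes 93, or 0.826%, were higher with shTRIB3-1 and lower with shTRIB3-2. With 3 libraries a group, no outlier test was made on single genes. The PES1 call with shTRIB3-2 ended without shCtrl replicate 1 (adjusted p = 0.162), the shCtrl library that differed most from the others.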

How the results depend on the processing

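Most of the members' calls kept their direction and side of the threshold under the alternatives. The members' median with shTRIB3-1 moved from -0.16 to -0.081 after median centring, to -0.22 on the TPM scale and to -0.11 after quantile normalization, and with shTRIB3-2 from -0.30 to -0.25 after median centring. Median centring also ended the shTRIB3-1 calls of POLR1A, NOP56, DKC1, GAR1, HEATR1 and NOP2, leaving 14 lower members. Quantile normalization ended those of POLR1A and HEATR1 (adjusted p of 0.105 and 0.0908). The shares of all tested genes called were counted in the main fit only, so counts under the alternatives have no such share beside them. Members higher with shTRIB3-2 than with shTRIB3-1 numbered 0 with all genes above 0, after median centring and after quantile normalization, and 0 to 1 when libraries were left out. Other pathway genes higher in that comparison numbered 2 after median centring, and 2 to 5 when libraries were left out, the 2 being without shTRIB3-2 replicate 3. Over single genes, 18 values changed sign, none of them past the threshold before or after. With shTRIB3-1 these were UTP15 (0.011, median centring), RRP1 (-0.013, TPM) and MYBBP1A (-0.030, TPM, and -0.024 to 0.061 without single libraries). With shTRIB3-2 they were BYSL (-0.045 to 0.124 without single libraries) and NOP16 (-0.0098 on the TPM scale and -0.043 to 0.098 without single libraries). Between the hairpins, leaving out single libraries gave -0.084 to 0.0054 for POLR1A, -0.0007 to 0.131 for POLR1C, -0.072 to 0.014 for UBTF, -0.044 to 0.045 for RRN3 and -0.066 to 0.017 for LYAR. RRN3 was also at -0.016 after median centring and -0.0056 after quantile normalization, and LYAR at 0.0014 on the TPM scale. The cause of these changes was not tested.

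Same-numbered libraries did not deviate together (correlations of -0.07 to 0.09), so the numbers were not taken as pairs. With the replicate block, 20, 24 and 17 members were lower and 9, 3 and 1 higher in the 3 comparisons, and the PES1 call with shTRIB3-2 ended (adjusted p = 0.0516). That call also ended with all genes above 0 (0.0841), median centring (0.221), quantile normalization (0.0563) and 2 groups only (0.0528). All-gene medians stayed between -0.11 and 0.06 under every scaling. With 3 libraries a group, changes near the size of the SE could not be told from 0.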

Other observations

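The RNA exosome, which trims precursor ribosomal RNA from the 3′ end, was among the other pathway genes. Of 14 genes of the exosome and its cofactors, 9 (64.3%) fell and 0 rose with each hairpin. Of all tested genes 41.5% fell and 32.9% rose with shTRIB3-1, and 40.5% fell and 35.4% rose with shTRIB3-2. The medians of the 14 genes on the log2 scale were -0.27 and -0.38, against -0.06 and -0.03 for all tested genes. EXOSC8 stood at 17.9, 18.1 and 18.4 FPKM in shCtrl, at 10.5, 9.42 and 9.81 FPKM with shTRIB3-1 and at 8.98, 7.68 and 8.19 FPKM with shTRIB3-2, so the groups did not overlap.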
